A study of Mus musculus with 18 samples.

Results

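The genes described here are 9 enzymes that make serine and glycine and carry carbon units on folate: Phgdh, Psat1, Psph, Shmt1, Shmt2, Mthfd1, Mthfd2, Mthfd1l and Gldc. They were taken by name from a read-count table of 35275 mouse genes, and all 9 passed the filter on low counts that left 15207 genes. The set was chosen from earlier results of these same data, so the genotype difference of these 9 genes is given below as a description. No p-value of theirs is given for that contrast, and counts of those under the threshold support nothing. The table holds 18 RNA-seq libraries from 6 primary cell lines of malignant peripheral nerve sheath tumor (MPNST), with 3 lines of each of 2 genotypes and 3 cultures of each line. Each line came from 1 tumor, raised in the sciatic nerve of a wild-type 129 Sv/Jae mouse by an adenovirus that carried CMV-driven Cas9 and guides. The guides targeted Nf1 together with p53 (Nf1/p53 dKO) or Nf1 together with Cdkn2a (Nf1/Cdkn2a dKO). The viral promoter is not restricted to a cell type, and there were no tumor cells with Nf1 alone targeted and no normal nerve among the libraries used here. All lines had been passaged at least 20 times and were grown in DMEM with 10% fetal bovine serum, a medium that supplies amino acids from outside. Levels are CPM, the counts of a gene scaled to a common library size by TMM, and a log2 fold change is Nf1/Cdkn2a dKO minus Nf1/p53 dKO, so that a negative value is a lower level in Nf1/Cdkn2a dKO.

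Cells make serine from the glycolytic intermediate 3-phosphoglycerate, which Phgdh oxidizes, Psat1 transaminates and Psph dephosphorylates. Shmt1 in the cytosol and Shmt2 in mitochondria then move a carbon from serine to tetrahydrofolate and release glycine. The Mthfd enzymes oxidize, reduce and release that carbon, which feeds the synthesis of purines, thymidylate and methionine, and Gldc is the decarboxylase of the mitochondrial system that cleaves glycine. Several of these genes are known targets of Atf4, a transcription factor made when amino acids run short, and the pathway is often active in proliferating tumor cells.

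The libraries held between 19560535 and 28312207 counts, with a median of 23149777. The labels describe the cells as mesenchymal, and all 8 mesenchymal markers were above 1 CPM in every line, with Vim at 4727 to 10210 CPM. The Schwann cell list of 8 genes summed to 91.6 CPM in Nf1/p53 dKO line 2, mostly Ngfr at 64.3 and Egr2 at 19.4 CPM, and to between 2.62 and 10.7 CPM in the other lines, and its defining factor Sox10 did not exceed 0.099 CPM in any line. The leukocyte list of 8 genes summed to between 4.03 and 8.39 CPM by line, mostly Cd68 and Csf1r, with Ptprc at no more than 0.563 CPM. Summed over its 7 genes, the skeletal muscle list ranged from 26.7 to 320 CPM among Nf1/p53 dKO lines and from 0.0289 to 0.594 CPM among Nf1/Cdkn2a dKO lines, which did not overlap, and Myod1 and Myog had no count in any Nf1/Cdkn2a dKO library. Of the targeted genes, Trp53 stood at 94.1, 67.5 and 58.7 CPM in Nf1/p53 dKO lines 1 to 3 and at 247, 246 and 185 CPM in Nf1/Cdkn2a dKO lines 1 to 3 (log2 fold change 1.62 ± 0.23 (SE), edgeR adjusted p = 0.0361). Cdkn2a was counted at 363, 279 and 42.9 CPM among Nf1/p53 dKO lines and at 169, 392 and 285 CPM among Nf1/Cdkn2a dKO lines, which overlapped. Nf1, targeted in all 6 lines, was counted at 27.7 to 70.0 CPM among Nf1/p53 dKO lines and at 12.7 to 38.2 CPM among the others. A count over a whole gene does not show a small insertion or deletion, so Cdkn2a and Nf1 give no check of the labels.

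Of the 9 genes, 7 were lower in all 3 Nf1/Cdkn2a dKO lines than in any Nf1/p53 dKO line: Phgdh, Psph, Shmt1, Shmt2, Mthfd2, Mthfd1l and Gldc. Among all genes tested, 16.6% were lower without overlap in the same direction. Psat1 and Mthfd1 had overlapping lines. The median log2 fold change of the 9 genes was -0.86, beside -0.02 over all genes tested. Phgdh and Psph were the 2 of 9 with an adjusted p under 0.05 in the edgeR quasi-likelihood fit, where 1.80% of all genes tested were called. Since the set was chosen from results of this contrast, nothing is read from these shares. Bulk counts cannot tell fewer cells that express a gene from less RNA in each cell.

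**Figure D1:**
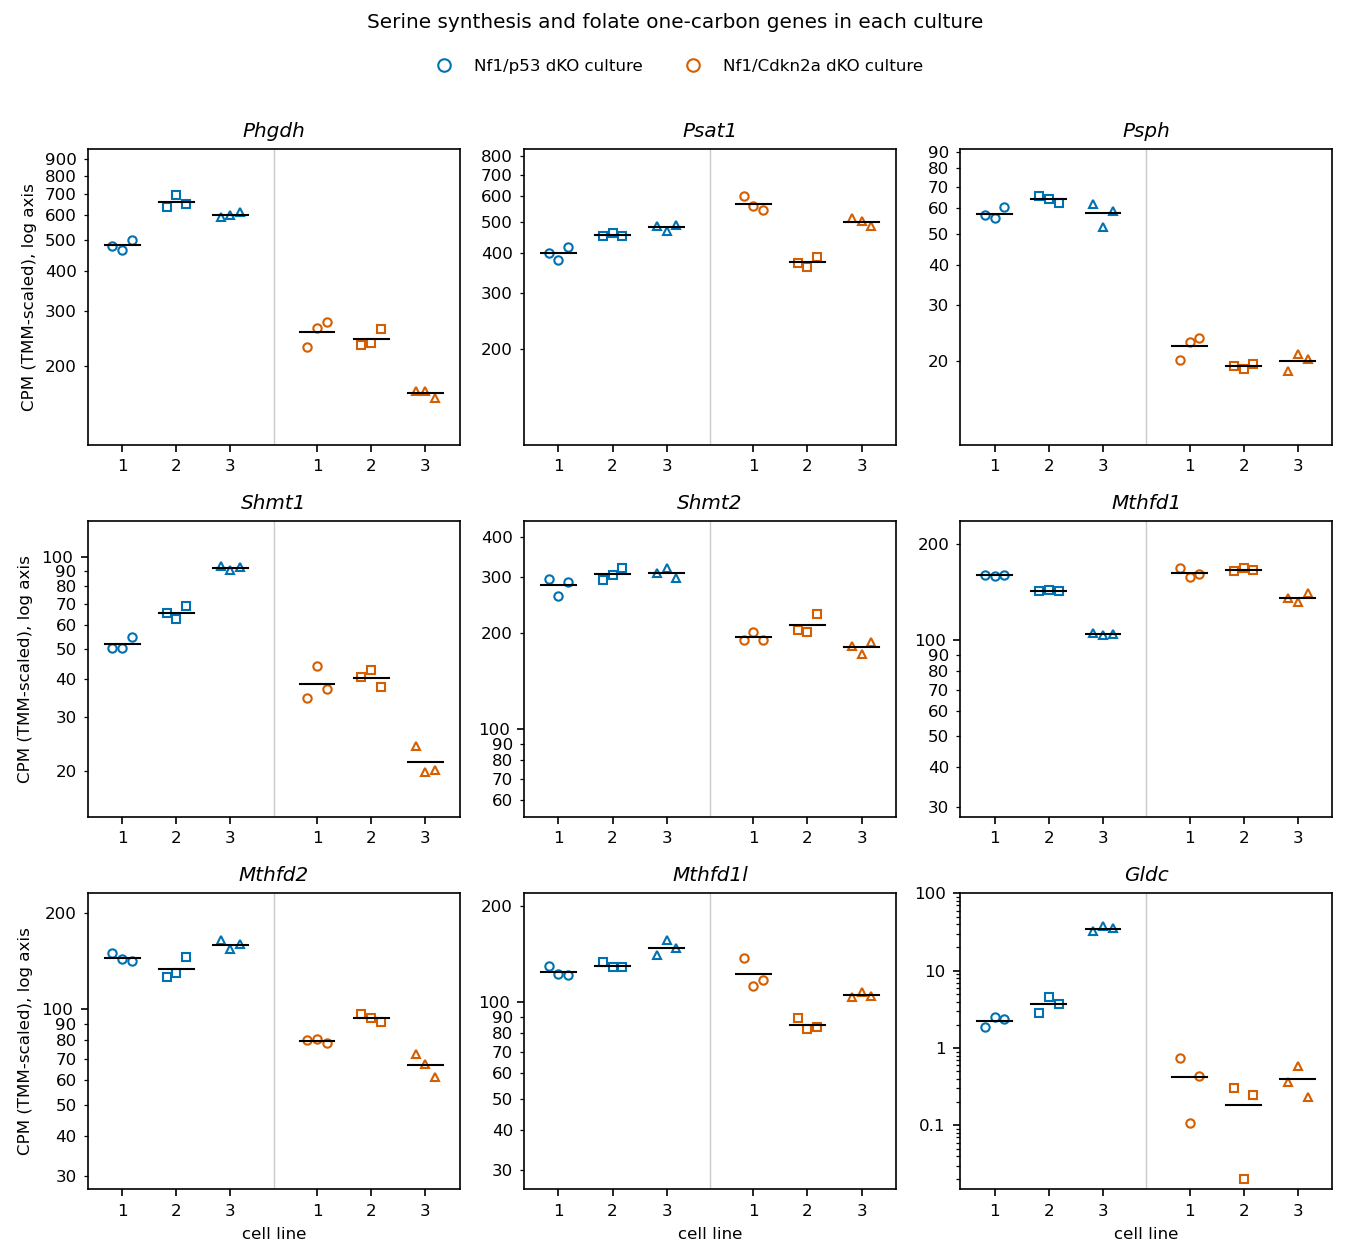
CPM of each of the 9 genes on a log axis in every culture (open symbols), by cell line 1 to 3 of Nf1/p53 dKO (blue, left) and Nf1/Cdkn2a dKO (orange, right); black bars are the mean of the 3 cultures, and the culture without a Gldc count is drawn at 0.02. Phgdh, Psph, Shmt1, Shmt2, Mthfd2 and Gldc show a gap between the cultures of the genotypes, and Psat1, Mthfd1 and Mthfd1l do not. Gldc is high in Nf1/p53 dKO line 3, where it reached 35.2 CPM.

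Phgdh, the first enzyme of serine synthesis, lies at chr3:98313170-98339990 on the minus strand (GRCm38, GENCODE M21). It was counted at 479, 659 and 602 CPM in Nf1/p53 dKO lines 1, 2 and 3. In Nf1/Cdkn2a dKO lines 1, 2 and 3 it was counted at 258, 244 and 165 CPM. All 9 Nf1/p53 dKO cultures, from 464 to 693 CPM, were above all 9 Nf1/Cdkn2a dKO cultures, from 159 to 276 CPM. The means were 580 ± 92.4 and 222 ± 49.9 CPM (SD, n = 3 lines), a ratio of 2.61 and a log2 fold change of -1.38 ± 0.22 (SE). Line 3 was the lowest of the Nf1/Cdkn2a dKO lines, with cultures that did not reach the cultures of the other lines of that genotype. Of the 50-base windows in Phgdh transcripts, 47.8% also occur in other annotated transcripts, most of them from processed pseudogenes, and 7 of the genes that share at least 50 such windows were in the table with a summed level of at most 0.0144 CPM. How reads with several matches were counted is not given in the sources used here, so the level of Phgdh may be understated in all libraries.

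Psat1, the aminotransferase that takes the product of Phgdh, lies at chr19:15904678-15947337 on the minus strand. It was counted at 396, 455 and 480 CPM in Nf1/p53 dKO lines 1, 2 and 3 and at 568, 373 and 502 CPM in Nf1/Cdkn2a dKO lines 1, 2 and 3. Nf1/Cdkn2a dKO lines gave both the highest and the lowest level, with all Nf1/p53 dKO lines between them. The means were 443 ± 43.2 and 481 ± 98.9 CPM (SD, n = 3 lines), and the log2 fold change of 0.12 ± 0.19 (SE) was smaller than its error and turned to -0.017 with raw library totals in place of TMM.

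Psph, the phosphatase that releases serine, lies at chr5:129765558-129787449 on the minus strand. Its lines were close together within each genotype, at 57.4, 64.0 and 57.8 CPM among Nf1/p53 dKO lines and 22.3, 19.3 and 20.03 CPM among Nf1/Cdkn2a dKO lines. Its 9 Nf1/p53 dKO cultures lay between 52.6 and 65.7 CPM and its 9 Nf1/Cdkn2a dKO cultures between 18.6 and 23.6 CPM, with no overlap. The means were 59.7 ± 3.70 and 20.5 ± 1.57 CPM (SD, n = 3 lines), a ratio of 2.91 and a log2 fold change of -1.54 ± 0.14 (SE). The gene overlaps Cct6a, a chaperonin subunit gene on the opposite strand, over 452 exon bases, or 10.4% of its exons. Cct6a was counted at a mean of 487 CPM in Nf1/p53 dKO and 438 CPM in Nf1/Cdkn2a dKO, and whether strand was used in counting is not given in the sources used here.

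The sequence before the start of Phgdh and of Psat1 is shown because, of these successive enzymes, the first was lower in Nf1/Cdkn2a dKO and the next was not, and that of Shmt2 and Gldc because they had the smallest spread between lines and the widest, respectively, among the folate and glycine genes that were lower. The sequences are RefSeq reference sequence (GRCm38.p6, C57BL/6J, not the 129 strain of the lines), 5′ to 3′ on the strand of the gene, and end at the transcript start, except that of Phgdh, from which 21 bases in an annotated exon were left off. For Psat1 the upstream one of 2 RefSeq starts was used; it lies inside the GENCODE span given above, which a longer transcript with a start farther upstream extends. Capitals mark a match to the core of the antioxidant response element, the site of Nfe2l2 and related factors.
Phgdh, chr3:98339991-98340219, minus strand: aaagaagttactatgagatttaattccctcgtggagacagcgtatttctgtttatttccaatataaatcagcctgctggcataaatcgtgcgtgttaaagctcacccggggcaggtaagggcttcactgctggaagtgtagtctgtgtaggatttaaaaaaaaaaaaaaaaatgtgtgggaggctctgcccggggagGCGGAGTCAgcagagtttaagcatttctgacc
Psat1, chr19:15925060-15925309, minus strand: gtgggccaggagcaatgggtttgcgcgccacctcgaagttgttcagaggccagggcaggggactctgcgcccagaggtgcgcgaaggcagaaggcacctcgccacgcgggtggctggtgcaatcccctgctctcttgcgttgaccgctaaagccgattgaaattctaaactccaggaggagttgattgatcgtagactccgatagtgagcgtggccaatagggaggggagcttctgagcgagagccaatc
Shmt2, chr10:127522445-127522694, minus strand: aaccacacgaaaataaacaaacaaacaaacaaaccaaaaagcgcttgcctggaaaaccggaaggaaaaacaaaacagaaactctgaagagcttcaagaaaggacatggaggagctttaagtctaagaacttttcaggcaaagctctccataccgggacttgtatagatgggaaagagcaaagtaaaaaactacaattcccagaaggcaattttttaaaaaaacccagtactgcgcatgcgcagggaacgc
Gldc, chr19:30175442-30175691, minus strand: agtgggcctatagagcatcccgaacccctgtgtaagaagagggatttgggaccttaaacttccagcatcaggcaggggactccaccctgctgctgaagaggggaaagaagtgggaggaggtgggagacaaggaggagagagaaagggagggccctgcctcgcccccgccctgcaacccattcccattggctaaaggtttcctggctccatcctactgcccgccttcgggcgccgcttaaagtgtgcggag

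In the 250 bases before the start, 0 of 9 genes held the amino acid response core TGATGNAA on either strand, which 3.45% of 32851 promoters held. The E-box CACGTG was found before 0 of 9 genes and in 6.02% of all promoters. The antioxidant response core TGACNNNGC was found before 1 of 9 genes, Phgdh, from 53 to 45 bases before the start, and in 10.2% of all promoters. These are matches of letters in a window and say nothing about binding, and the response elements of such genes can also lie in introns or farther away.

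Shmt1 (chr11:60788104-60811718, minus strand), the cytosolic enzyme that splits serine into glycine and a folate-bound carbon, was counted at 51.5, 65.5 and 92.2 CPM in Nf1/p53 dKO lines 1, 2 and 3. Among Nf1/Cdkn2a dKO lines it was counted at 38.4, 40.5 and 21.5 CPM. The means were 69.7 ± 20.7 and 33.5 ± 10.4 CPM (SD, n = 3 lines), and the log2 fold change was -1.06 ± 0.32 (SE). The genotypes did not overlap, but the lines within each genotype were far apart, and line 3 was the highest in Nf1/p53 dKO and the lowest in Nf1/Cdkn2a dKO. Shmt1 shares 184 exon bases, or 4.74% of its exons, with Smcr8 on the opposite strand, which had a mean of 68.7 CPM in Nf1/p53 dKO and 56.7 CPM in Nf1/Cdkn2a dKO.

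Shmt2 (chr10:127517123-127522444, minus strand), the mitochondrial counterpart, was counted at 278, 304 and 308 CPM among Nf1/p53 dKO lines and at 194, 211 and 182 CPM among Nf1/Cdkn2a dKO lines. The means were 297 ± 16.0 and 195 ± 14.6 CPM (SD, n = 3 lines), and the log2 fold change was -0.60 ± 0.13 (SE). The lines of a genotype were close to each other, so that a smaller difference than that of Shmt1 stood farther outside the spread. In units of CPM per kilobase of exon, Shmt2 exceeded Shmt1 by a ratio of 5.57 ± 1.30 in Nf1/p53 dKO and 7.77 ± 2.37 in Nf1/Cdkn2a dKO (SD, n = 3 lines), and these ratios overlapped.

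Mthfd2 (chr6:83305691-83325908, minus strand), the mitochondrial dehydrogenase and cyclohydrolase of proliferating cells, was counted at 144, 134 and 159 CPM among Nf1/p53 dKO lines. Among Nf1/Cdkn2a dKO lines it was counted at 79.7, 94.4 and 67.2 CPM. The log2 fold change was -0.86 ± 0.17 (SE), and no culture of one genotype reached the range of the other. Mthfd2l, the related enzyme that is no member of the set, was counted at a mean of 13.8 ± 2.87 CPM in Nf1/p53 dKO and 17.3 ± 2.46 CPM in Nf1/Cdkn2a dKO (edgeR adjusted p = 0.442). Per kilobase of exon, Mthfd2 exceeded Mthfd2l by a ratio of 16.1, 22.2 and 23.3 among Nf1/p53 dKO lines and 9.05, 8.98 and 8.42 among Nf1/Cdkn2a dKO lines, with no overlap.

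Mthfd1l (chr10:3973118-4167081, plus strand), which releases formate from mitochondria, was counted at 124, 130 and 149 CPM among Nf1/p53 dKO lines and at 123, 85.8 and 106 CPM among Nf1/Cdkn2a dKO lines. It is the least separated of the 7 lower genes: Nf1/Cdkn2a dKO line 1 lay just under Nf1/p53 dKO line 1, and the cultures overlapped. Its log2 fold change was -0.36 ± 0.17 (SE).

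Mthfd1 (chr12:76255298-76319803, plus strand), the cytosolic enzyme with synthetase, cyclohydrolase and dehydrogenase activities, was counted at 158, 143 and 104 CPM among Nf1/p53 dKO lines and at 163, 167 and 136 CPM among Nf1/Cdkn2a dKO lines. The log2 fold change of 0.20 ± 0.19 (SE) was about as large as its error, and the lines overlapped. The ratio of Mthfd1l to Mthfd1 per kilobase of exon was 0.782, 0.916 and 1.43 among Nf1/p53 dKO lines and 0.756, 0.516 and 0.777 among Nf1/Cdkn2a dKO lines. These ranges lay next to each other without overlap, the highest Nf1/Cdkn2a dKO line being just under the lowest Nf1/p53 dKO line.

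Gldc (chr19:30098447-30175429, minus strand), the glycine decarboxylase, was the least abundant of the 9 genes and the most variable. Its counts in the 3 cultures were 42, 75 and 59 in Nf1/p53 dKO line 1, 67, 111 and 83 in line 2, and 758, 943 and 840 in line 3. In Nf1/Cdkn2a dKO they were 15, 2 and 10 in line 1, 8, 0 and 5 in line 2, and 8, 12 and 5 in line 3. The culture without a count allows a level of up to 0.129 CPM, from 3 counts, which covers counting error only. In CPM the lines stood at 2.27, 3.69 and 35.2 for Nf1/p53 dKO and 0.433, 0.188 and 0.391 for Nf1/Cdkn2a dKO. The log2 fold change of -5.34 ± 1.24 (SE) rested in large part on Nf1/p53 dKO line 3, and without that line it was -3.14. Every Nf1/p53 dKO line, line 1 and line 2 included, was above every Nf1/Cdkn2a dKO line. The muscle markers Myod1 and Des were also highest in line 3, at 204 and 86.6 CPM, beside 1.75 and 21.6 CPM in line 1 and 0.269 and 1.30 CPM in line 2, and the summed list stood at 51.8, 26.7 and 320 CPM. Myf5 was nearly equal in these 3 lines, at 28.03, 24.2 and 27.7 CPM, and Actc1 was highest in line 2, at 0.58 CPM. All 7 markers of that list stood at or under 0.529 CPM among Nf1/Cdkn2a dKO lines, and their part in the level of Gldc was not tested.

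Per kilobase of exon, the order of the 9 genes in Nf1/p53 dKO was Phgdh at 233 ± 37.2, Psat1 at 104 ± 10.2, Shmt2 at 95.4 ± 5.16, Mthfd2 at 41.7 ± 3.68, Mthfd1 at 30.4 ± 6.24, Mthfd1l at 30.3 ± 2.93, Shmt1 at 17.96 ± 5.32, Psph at 13.8 ± 0.854 and Gldc at 2.25 ± 3.05 CPM per kilobase (SD, n = 3 lines). In this order the line ranges of Psat1 and Shmt2, of Mthfd1 and Mthfd1l, and of Shmt1 and Psph overlapped. In Nf1/Cdkn2a dKO the order began with Psat1 at 113 ± 23.3, Phgdh at 89.5 ± 20.1 and Shmt2 at 62.8 ± 4.70 CPM per kilobase, where Psat1 overlapped Phgdh and Phgdh overlapped Shmt2. Mthfd1 followed at 34.9 ± 3.69, Mthfd1l at 23.6 ± 4.17, Mthfd2 at 23.1 ± 3.90, Shmt1 at 8.62 ± 2.68, Psph at 4.74 ± 0.363 and Gldc at 0.0554 ± 0.0216 CPM per kilobase, and among these Mthfd1l and Mthfd2 overlapped. By this measure Phgdh was the most abundant of the 9 transcripts in Nf1/p53 dKO, and in Nf1/Cdkn2a dKO its line range overlapped that of Psat1. The length is that of all annotated exons of a gene merged, 2486 bases for Phgdh and 4254 for Psat1. A gene with annotated exons that the lines do not use is understated by it. The order of the genes and the size of ratios between genes therefore depend on the annotation.

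Ratios between the serine synthesis genes restate the levels given above. The set was chosen from the genotype contrast, so a gap in these ratios is no separate result. Phgdh over Psat1, per kilobase of exon, was 2.07, 2.48 and 2.15 among Nf1/p53 dKO lines and 0.777, 1.12 and 0.563 among Nf1/Cdkn2a dKO lines. Psph over Psat1 was 0.143, 0.138 and 0.118 against 0.0386, 0.0508 and 0.0392. Phgdh over Psph, in contrast, was 14.5, 17.9 and 18.2 against 20.1, 22.0 and 14.4, ranges that overlapped.

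**Figure D2:**
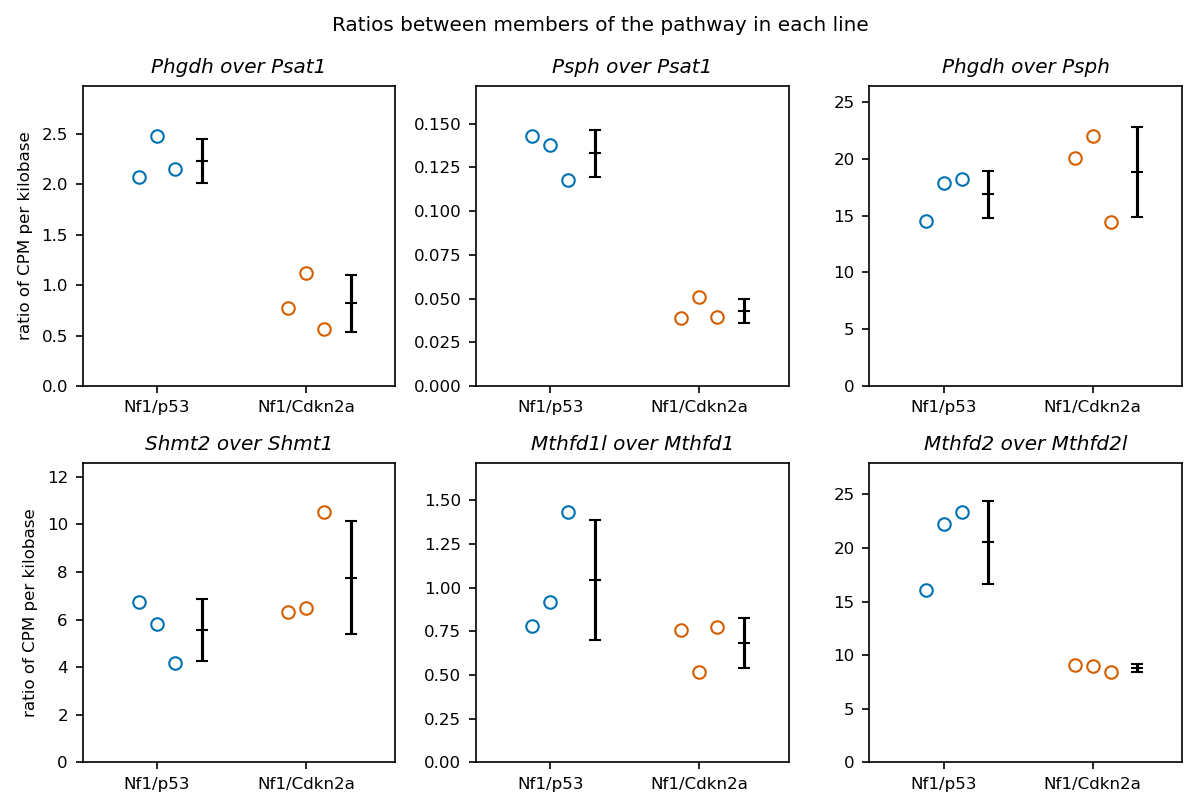
Ratio of CPM per kilobase of exon between pairs of genes in each line (open circles) of Nf1/p53 dKO (blue) and Nf1/Cdkn2a dKO (orange), with the mean and SD of 3 lines in black; every axis starts at 0. Phgdh over Psat1, Psph over Psat1 and Mthfd2 over Mthfd2l show a wide gap between the genotypes, while Phgdh over Psph and Shmt2 over Shmt1 overlap. The ratios restate the levels of the genes and are no separate result.

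Differences between lines of one genotype were compared with the spread between cultures. This compares these 6 lines and not the genotypes. The set was chosen with earlier results of the same data known, so its p-values and counts here are a description and give no independent support. In the edgeR quasi-likelihood F test, 7 of 9 genes differed between the Nf1/p53 dKO lines, where 73.2% of the genes tested did, and 7 of 9 differed between the Nf1/Cdkn2a dKO lines, where 56.8% did. In Nf1/p53 dKO the exceptions were Psph (adjusted p = 0.135) and Shmt2 (adjusted p = 0.124), and in Nf1/Cdkn2a dKO they were Psph (adjusted p = 0.0899) and Gldc (adjusted p = 0.207). Psph was thus the gene not called in either genotype, with its highest line at 1.11 and 1.16 times its lowest. Shmt1 varied most after Gldc, with its highest line at 1.79 times its lowest in Nf1/p53 dKO (adjusted p = 7.03e-09) and 1.88 times in Nf1/Cdkn2a dKO (adjusted p = 3.62e-09). Mthfd1 in Nf1/p53 dKO differed by 1.52 times from line 1 to line 3 (adjusted p = 1.9e-10), and its cultures within each line were nearly equal, at 104 to 105 CPM in line 3. Gldc in Nf1/p53 dKO differed by 15.5 times (adjusted p = 1.02e-14). The study's methods say that each line was plated in triplicate, and its figure legends call the triplicates independent samples. These p-values measure the spread between plates of a line, which may be technical.

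Around the 9 genes, 101 other genes of 7 lists were examined: folate enzymes, glycine cleavage partners, carriers, genes of serine use, amino acid response genes, regulators and proliferation genes. Of the 95 tested, 5 were called at an adjusted p under 0.05 over all genes tested, and all 5 were lower in Nf1/Cdkn2a dKO. Of all genes tested, 1.80% were called, and 177 of those 274 were lower. The 5 list genes called were Aldh1l2, Slc6a9, Asns, Trib3 and Sars. The lists, like the 9 genes, were chosen with earlier results of these data known. Their calls and directions are therefore a description and give no independent support. An unadjusted p under 0.05 was reached by 28 of the 95, and by 3400 of the 15207 genes tested.

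**Figure D3:**
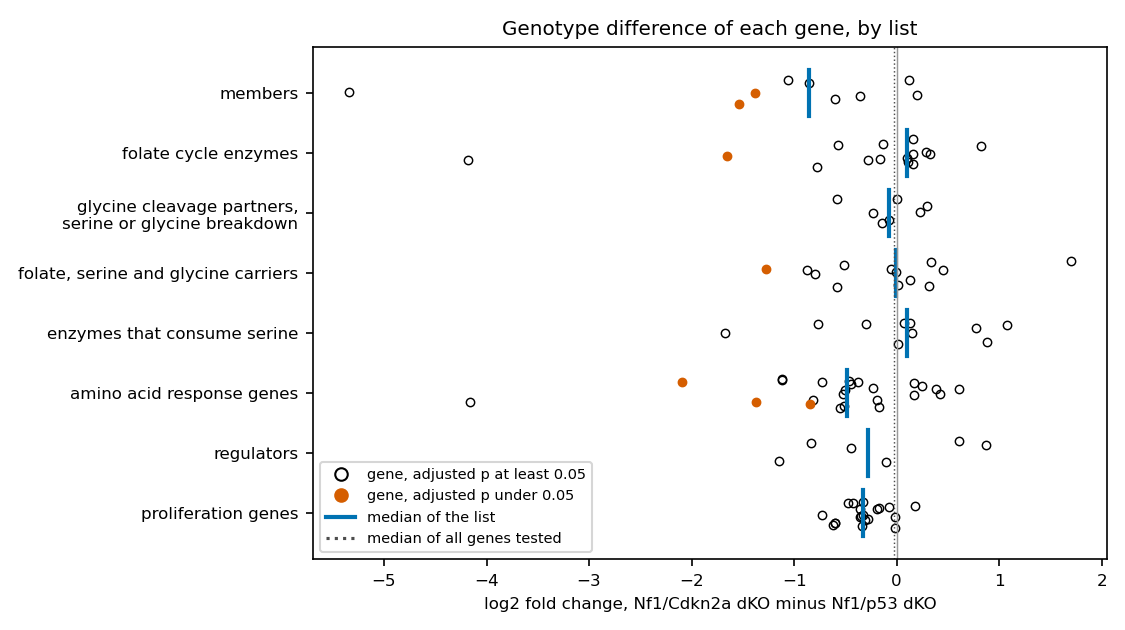
Log2 fold change (Nf1/Cdkn2a dKO minus Nf1/p53 dKO) of every tested gene of the 9-gene set and of the 7 other lists, 1 circle a gene, spread vertically for legibility; filled circles have an adjusted p under 0.05, blue bars are list medians and the dotted line is the median of all genes tested. The set has a median of -0.86 and the amino acid response genes one of -0.48, while the folate cycle enzymes, carriers and genes of serine use (labelled enzymes that consume serine) have medians near 0.

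Of 15 folate cycle enzymes tested, 8 were higher and 7 lower, with a median log2 fold change of 0.10, or -0.038 with raw library totals. Aldh1l2, which oxidizes folate-bound carbon to carbon dioxide in mitochondria, fell from 75.6, 106 and 83.5 CPM among Nf1/p53 dKO lines to 31.8, 20.9 and 31.4 CPM among Nf1/Cdkn2a dKO lines (log2 fold change -1.66 ± 0.23, adjusted p = 0.0361). Its cytosolic relative Aldh1l1 had lines from 0.581 to 11.4 CPM and from 0.866 to 11.8 CPM, which overlapped almost fully. Sardh, a mitochondrial enzyme that makes glycine from sarcosine, had the lowest fold change of the list, at 13.7, 26.9 and 36.4 CPM against 2.39, 0.216 and 1.63 CPM (log2 fold change -4.18 ± 0.88, adjusted p = 0.0638). Ggh, which trims folate polyglutamates, had the highest, 0.83 ± 0.50 (adjusted p = 0.374), at 49.2, 17.3 and 14.2 CPM against 34.4, 54.8 and 53.8 CPM. Its fold change depended on the line: 1.6 without Nf1/p53 dKO line 1, 0.60 without line 2 and 0.53 without line 3. The cytosolic purine enzymes Gart and Atic, which use formyl-folate, both had log2 fold changes of 0.16, with overlapping lines.

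Of 7 glycine cleavage partners and serine or glycine breakdown genes tested, 3 were higher and 4 lower, with a median of -0.08. In this edgeR fit 0 of 7 were called, 0 had an unadjusted p under 0.05, and DESeq2 on the 6 lines called 0. Amt, the partner of Gldc that passes the carbon to folate, was the lowest at -0.58 ± 0.33 (adjusted p = 0.343), with 1.46 to 1.65 CPM against 0.882 to 1.22 CPM. Gcsh, the carrier protein of the same system, was the highest at 0.29 ± 0.36 (adjusted p = 0.663), with 48.6 to 118 CPM against 85.4 to 135 CPM. Both fold changes were smaller in size than that of Gldc, and the difference between the genes was not tested.

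Of 13 carriers tested, 6 were higher and 7 lower, with a median of 0.00. Slc6a9, the glycine transporter GlyT1, fell from 23.4, 18.6 and 23.4 CPM to 9.08, 8.65 and 9.24 CPM (log2 fold change -1.28 ± 0.19, adjusted p = 0.0388) and was also the lowest of the list. Folr2, a folate receptor, was the highest at 1.70 ± 0.77 (adjusted p = 0.254), where line 3 of Nf1/Cdkn2a dKO stood at 2.31 CPM and the other 5 lines at or under 0.447 CPM. Sfxn1, the mitochondrial serine carrier, and Slc19a1, the reduced folate carrier, had overlapping lines.

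The list of serine use holds enzymes that consume serine, the Serinc proteins, which are membrane proteins and not enzymes, and Cth, which acts on cystathionine, made from serine by Cbs. Of its 10 genes tested, 7 were higher and 3 lower, with a median of 0.10, or -0.042 with raw library totals. None was called by edgeR, 4 had an unadjusted p under 0.05, and DESeq2 on the 6 lines called 3. Cth, which releases cysteine, was the lowest, at 47.1, 26.8 and 31.6 CPM against 8.60, 15.2 and 9.12 CPM (log2 fold change -1.68 ± 0.32, adjusted p = 0.0551). Sptlc2, a subunit of the palmitoyltransferase that starts sphingolipid synthesis from serine, was the highest, at 80.9, 65.4 and 33.5 CPM against 107, 128 and 143 CPM (log2 fold change 1.07 ± 0.32, adjusted p = 0.125).

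Of 24 amino acid response genes, which respond to Atf4 or to amino acid shortage, 18 were lower and 6 higher, with a median of -0.48, beside 7875 lower and 7332 higher of all genes tested. Without overlap between the lines, 11 of 24 were lower and 1 higher, beside 2521 lower and 2248 higher of the 15207 genes tested. Of the 24 genes, 3 were called. Asns, which makes asparagine, fell from 112, 189 and 133 CPM to 56.9, 62.1 and 48.7 CPM (log2 fold change -1.37 ± 0.22, adjusted p = 0.0465). Trib3, a pseudokinase induced by amino acid shortage, fell from 21.5, 23.0 and 10.6 CPM to 3.59, 4.62 and 4.72 CPM (log2 fold change -2.09 ± 0.35, adjusted p = 0.0465). Sars, the cytosolic enzyme that charges the serine tRNA, fell from 373, 318 and 349 CPM to 196, 212 and 170 CPM (log2 fold change -0.85 ± 0.15, adjusted p = 0.0499). The call of Sars did not hold with DESeq2 size factors (edgeR adjusted p = 0.0503), without a filter (0.0502) or without culture 1 of each line (0.0513). In all 3 the lines of the genotypes were apart. The lowest value was that of Slc7a3, a cationic amino acid transporter, at -4.16 ± 0.81 (adjusted p = 0.0553), with 27.6, 9.24 and 3.68 CPM against 0.995, 0.764 and 0.5005 CPM, and the highest that of Cebpb, at 0.61 ± 0.23 (adjusted p = 0.191).

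Of the 6 regulators, 0 were called by edgeR, 2 had an unadjusted p under 0.05, and DESeq2 on the 6 lines called 2. Atf4 was counted at 321, 321 and 453 CPM among Nf1/p53 dKO lines and at 224, 212 and 177 CPM among Nf1/Cdkn2a dKO lines, without overlap (log2 fold change -0.84 ± 0.19, adjusted p = 0.0785). Nfe2l2, the activator of the antioxidant response, lay the other way without overlap, at 129, 122 and 131 CPM against 234, 196 and 270 CPM (log2 fold change 0.87 ± 0.16, adjusted p = 0.0512). Atf4 protein is controlled mainly by translation and Nfe2l2 protein by its breakdown through Keap1, so these mRNA levels do not measure the activity of either factor. Keap1 (-0.10 ± 0.21), Myc (-0.45 ± 0.37), Mycn (-1.15 ± 1.35) and Atf3 (0.61 ± 0.44) had overlapping lines, with adjusted p-values of 0.81, 0.513, 0.647 and 0.45.

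Proliferation genes were examined because the folate pathway feeds nucleotide synthesis. Of 20 tested, 19 were lower and 1 higher, with a median of -0.33, beside 7875 lower of the 15207 genes tested. Lower without overlap between the lines were 5 of 20, beside 16.6% of all genes tested. Without Nf1/p53 dKO line 3 the median was -0.079. None was called by edgeR, 4 had an unadjusted p under 0.05, and DESeq2 on the 6 lines called 1. Ccna2, cyclin A2, was the lowest at -0.73 ± 0.17 (adjusted p = 0.0779), with 247, 302 and 293 CPM against 189, 141 and 179 CPM. Rrm2, a ribonucleotide reductase subunit, was the highest at 0.17 ± 0.17 (adjusted p = 0.572). The summed level of the list was 4023, 4126 and 5896 CPM in Nf1/p53 dKO lines 1, 2 and 3 and ranged from 3410 to 4091 CPM in Nf1/Cdkn2a dKO, so that line 3 stood apart, and its part in the levels of the 9 genes was not tested.

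**Figure D4:**
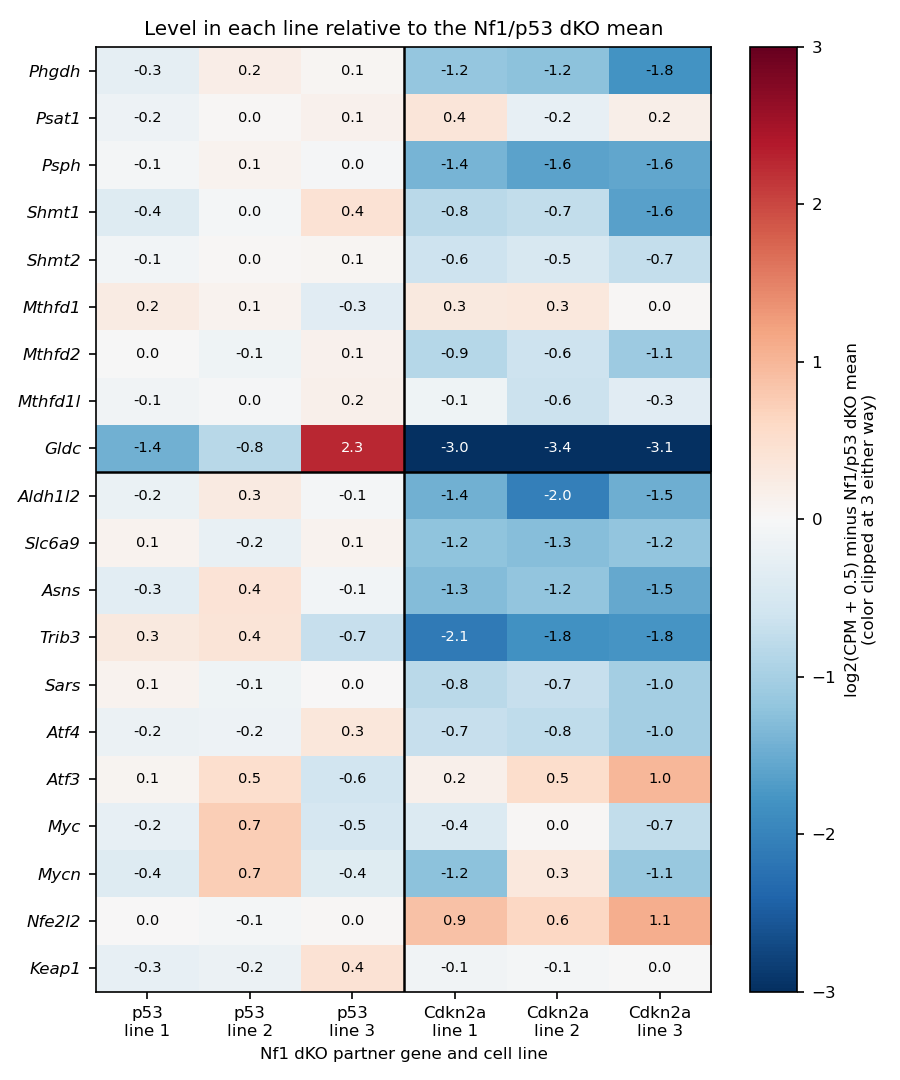
log2(CPM + 0.5) in each line minus the mean of the 3 Nf1/p53 dKO lines, for the 9 genes (above the line), the 5 called genes of the other lists and the 6 regulators; blue is lower and red higher, with color clipped at 3. Phgdh, Psph, Aldh1l2, Slc6a9, Asns, Trib3 and Sars are lower in all 3 Nf1/Cdkn2a dKO lines, Nfe2l2 is higher in all 3, and Psat1 has lines of both signs.

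Among the genes called, leaving out a line moved the calls more than the fold changes. Fold changes of other genes could move farther, as that of Gldc did, from -5.84 to -3.14. With a line left out, the log2 fold change of Phgdh ran from -1.50 to -1.20, that of Psph from -1.595 to -1.47, that of Aldh1l2 from -1.76 to -1.48, that of Slc6a9 from -1.36 to -1.22, that of Asns from -1.52 to -1.12, that of Trib3 from -2.36 to -1.88 and that of Sars from -0.92 to -0.76. With any of the Nf1/Cdkn2a dKO lines 1, 2 or 3 left out, or Nf1/p53 dKO line 2, 0 of the 9 genes and 0 of the list genes were called by edgeR. In these fits 6 or 7 of the 9, and 21 to 27 of the list genes, had an unadjusted p under 0.05. So did 2668 to 3169 of all genes, of which 15605 to 15872 were tested, and nothing is read from the counts of the 9. Without Nf1/p53 dKO line 1 the counts called were 1 and 3, and without line 3 they were 1 and 2, Psph being the 1 of 9 in both. Over all genes the number called went from 274 to between 0 and 172 when a line was left out.

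The genes whose levels followed each of the 9 most closely were sought by Pearson r of log2(CPM + 0.5) over the 18 cultures, among 9132 other genes with a mean of at least 10 CPM. Cultures of the same line are not independent, and a difference between genotypes raises r for any pair of genes that both differ, so r is a description. Phgdh was followed most closely by Ubqln4 (r = 0.989) and Msto1 (r = 0.985), which had means of 214 and 98.0 CPM in Nf1/p53 dKO and 112 and 44.4 CPM in Nf1/Cdkn2a dKO. Psph was followed by Myf5 (r = 0.989) and Jph2 (r = 0.985). Myf5, a myogenic factor, was counted at 28.03, 24.2 and 27.7 CPM among Nf1/p53 dKO lines and at no more than 0.0156 CPM in any Nf1/Cdkn2a dKO line, so its r with Psph follows the genotype. Shmt2 was followed by D930015E06Rik (r = 0.978) and Msto1 (r = 0.972), and Shmt1 by Sox9 (r = 0.98) and Sart3 (r = 0.979).

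Mthfd2 was followed by Gpt2 (r = 0.983), a mitochondrial alanine transaminase with means of 59.3 and 18.2 CPM, and by Gfm1 (r = 0.979). Gldc was followed by Plekhg5 (r = 0.981) and Nfix (r = 0.977), and Mthfd1l by Pdpn and Racgap1 (both r = 0.95). The genes nearest to Psat1, Cd47 (r = 0.926) and Figf (r = 0.897), and to Mthfd1, Arhgef5 (r = 0.988) and Mbtps1 (r = 0.982), did not share the pattern of Phgdh. Between the 9 genes themselves, Phgdh had r = 0.953 with Psph, 0.968 with Shmt2 and 0.938 with Mthfd2, and -0.185 with Psat1. After the mean of each line was taken off, these became 0.48, 0.37, -0.0363 and 0.018. Most of the closeness thus lay between lines, and less of it between cultures of the same line.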

How the data were processed

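RNA-seq was performed on 18 cultures. The table deposited by the authors holds unnormalized counts of reads for each gene, and the submitters' processing notes name CASAVA, STAR 2.5 and DESeq2 1.14.1 and the build GRCm38 (mm10). The counting tool, annotation version and strand setting are not given in the sources used here. For each line, the 3 cultures were added together, genes with too few counts were left out (filterByExpr, minimum count 10, minimum total 15), and 3 lines of each genotype were compared by edgeR 4.0.16 quasi-likelihood tests with TMM scaling and Benjamini-Hochberg adjustment over all genes tested (threshold 0.05). SE is the size of the log2 fold change over the square root of F, taken before the shrinkage that edgeR applies to the printed fold change. DESeq2 1.42.0 and limma 3.58.1 served as alternatives. Exon lengths and positions came from GENCODE M21, and the exon length of a gene is that of the exons of all its transcripts, merged. The 9 genes, the lists and the rule for named genes (all 9; the highest, lowest and called genes of each pathway list; all regulators; targeted genes; the 2 most alike) were chosen with earlier results of these data known. Genes named outside this rule, such as Mthfd2l, Aldh1l1, Gart, Atic, Sfxn1 and Slc19a1, were chosen after their values were seen. No library repeated another. Of the other marker lists, endothelial genes summed to at most 2.57 CPM and epithelial genes to between 2.67 and 739 CPM by line. The high epithelial sums were mostly Krt8, at up to 601 CPM, and Krt18, at up to 199 CPM. Epcam did not exceed 0.764 CPM and Cdh1 did not exceed 1.26 CPM in any line. Of the markers, 1 endothelial gene, Tek, and 1 muscle gene, Myf5, were called.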

Additional observations from a re-analysis of the deposited data

How the results depend on the processing

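Of the genes recomputed under the alternatives (the 9 and those the naming rule took from the lists), each kept its direction except Psat1 among the 9, whose log2 fold change was -0.017 with raw library totals and ran from -0.010 (without Nf1/Cdkn2a dKO line 1) to 0.28 with a line or culture number left out. Outside them, the same range held both signs for Gcsh (-0.011 to 0.52, negative without Nf1/p53 dKO line 3), Keap1 (-0.23 to 0.16, positive without that line), Cdkn2a (-0.18 to 0.81, negative without that line and, at -0.0033, without Nf1/Cdkn2a dKO line 2) and Myc (-0.68 to 0.039, positive without Nf1/p53 dKO line 2). The median of the 9 genes ran from -0.99 to -0.74 over all alternatives. The number of the 9 called was 2, and became 6 with DESeq2 on the lines, 5 with limma-voom and the line as a random effect, 4 with raw library totals, and 7 with edgeR, with DESeq2 and with culture number as a replicate block on the 18 cultures, which treat cultures as independent. Over all genes the main fit called 274 of 15207. The alternatives called 2055 of 23859, 2173 of 13110, 423 of 15207, 6096 of 13110, 7171 of 23859 and 5681 of 13110, in the same order. The 23859 genes of the DESeq2 fits are all genes with a count, without the filter on low counts. Their shares are therefore not comparable with those of the filtered fits. Nothing is read from the counts of the 9, since the set was chosen from this contrast. The number of the 9 called ran from 0 to 1 with a line left out and was 2 with any culture number left out. Without culture number 1, 2 and 3, all genes called were 274 of 14407, 331 of 14477 and 272 of 14501. The 5 list genes became 17, 29, 9, 50, 48 and 45 in the same order, 4 with DESeq2 size factors, where Sars was lost, 8 without a filter, 0 to 3 with a line and 4 to 7 with a culture number left out. Raw totals moved the median of all genes by -0.14 and reversed the median of the genes of serine use (-0.042). Line numbers are only names: same-numbered lines deviated with correlations of -0.13 to -0.08, and with line number as a replicate block edgeR called 0 of the 9, 0 list genes and 0 of all genes (6, 24 and 2740 at an unadjusted p under 0.05). Calls between lines of a genotype numbered 5 to 8 of the 9 in Nf1/p53 dKO and 6 or 7 in Nf1/Cdkn2a dKO. The main fit of that test called 73.2% and 56.8% of all genes tested. The shares under its alternatives are not given here, so nothing is read from these counts of the 9. With 150 bases before the start, the motif counts were 0, 0 and 1. For Gldc, counts of 0 to 15 in the Nf1/Cdkn2a dKO cultures limit the precision.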
